A study of Homo sapiens with 4 samples.

Results

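The histone chaperones described here are the products of 10 genes: SSRP1 and SUPT16H, which encode the subunits of FACT (facilitates chromatin transcription), SUPT6H, ASF1A, ASF1B, CHAF1A, CHAF1B, NASP, NPM1 and HIRA. They were found by their symbols among the 26364 genes listed for each sample. All 10 were listed, and all 10 had a mean level high enough to be tested. RNA-seq was done on BE(2)C cells, a human neuroblastoma line that carries many copies of the oncogene MYCN. Ctrl cells received a non-targeting siRNA and MYCN KD cells received 1 siRNA against MYCN, with a lipid reagent for 6 h at 80 nM according to the sample labels. The study's methods give a lower final concentration, reached once more medium had been added. RNA was taken on the following day from 2 samples of each condition. Both conditions share the line, the medium and the transfection, so a value describes 1 cell line shortly after a transient knockdown. The study calls its samples of a condition biological replicates, but the labels do not say that they came from separate cultures. P-values here rest on the spread left between these samples after the authors removed unwanted variation, and that spread may be technical. Deviations of same-numbered samples from their condition means correlated at -0.9845 over the genes tested, so the replicate spread is known poorly.

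Histone chaperones are acidic proteins that bind histones and hand them to DNA or take them from it without using ATP. FACT loosens the H2A-H2B dimers of nucleosomes ahead of polymerases, and SPT6, the product of SUPT6H, keeps histones on genes behind RNA polymerase II. CAF-1 (CHAF1A, CHAF1B) lays new H3-H4 onto replicated DNA, and ASF1 passes H3-H4 to CAF-1 or to the HIRA complex. HIRA deposits the variant H3.3 independently of DNA replication. NASP holds soluble H3-H4, and NPM1 is an abundant nucleolar protein that also takes part in ribosome assembly. The study lowered MYCN, a transcription factor of the MYC family, to follow what it does to chromatin, and measured the FACT subunits in doing so. The other chaperones give the levels of the rest of the histone handling machinery.

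Levels were deposited as RPKM, the reads per length of a gene scaled to the total reads of the sample, which can be compared between genes. Differences were tested on log2(RPKM + 1) with limma, which borrows information on the spread across genes, for 11411 genes, those that averaged 1 RPKM or more over the samples. The threshold was an adjusted p of 0.05 after Benjamini-Hochberg adjustment over these genes. The reads recovered behind the values ranged from 28573784 to 33602662 per sample on the listed genes. A recovered count can be a fraction of the true one, so these sums may be too low. They are reads after normalisation by the authors and not the raw depth. MYCN itself had 1068 and 1073 RPKM in the Ctrl samples and 720 and 718 RPKM in the MYCN KD samples, and its mean fell by 32.8%. The adrenergic markers of the line were present, with a summed level of 2147 to 2275 RPKM in Ctrl and 3252 to 3449 RPKM in MYCN KD, and 6 of the 11 were higher and 2 lower in MYCN KD by limma. For comparison, 25.3% of all genes tested were higher and 22.8% were lower. Of 8 markers of the mesenchymal neuroblastoma state, 6 lay under the minimum of 1 RPKM, 1 was higher and 0 were lower (unadjusted p under 0.05: 1 lower; limma voom: 0 lower), and the list summed to between 158.7 and 164.2 RPKM in Ctrl and between 232.0 and 239.8 RPKM in MYCN KD, nearly all of it VIM. Of 10 markers of leukocytes, fibroblasts, endothelium and epithelium, 7 lay under the minimum 3 were higher (CD68, COL1A1 and PDGFRB) and 0 were lower in limma (unadjusted p under 0.05: 3 higher and 0 lower; limma voom: 2 higher and 0 lower). The summed level of these 10 was 15.51 to 16.63 RPKM in Ctrl and 24.46 to 26.80 RPKM in MYCN KD, with the leukocyte gene PTPRC at no more than 0.00464 RPKM. The part of these markers in the results below was not tested.

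Of the 10 chaperone genes, 6 were lower in MYCN KD (NPM1, NASP, SSRP1, CHAF1A, CHAF1B and HIRA) and 0 were higher in the limma test. Limma voom, run on the whole reads recovered from the RPKM values, also called 6 lower and 0 higher, and at an unadjusted p under 0.05 the counts were 7 and 0. Among all genes tested, 22.8% were lower and 25.3% were higher. The median log2 fold change of the 10 genes was -0.45, against 0.03 over all genes tested. In 7 of the 10 genes both MYCN KD values lay below both Ctrl values, an arrangement that 35.8% of all genes tested showed. The reverse arrangement, which 40.4% of all genes tested showed, was seen in 1 of the 10 genes, ASF1B.

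**Figure D1:**
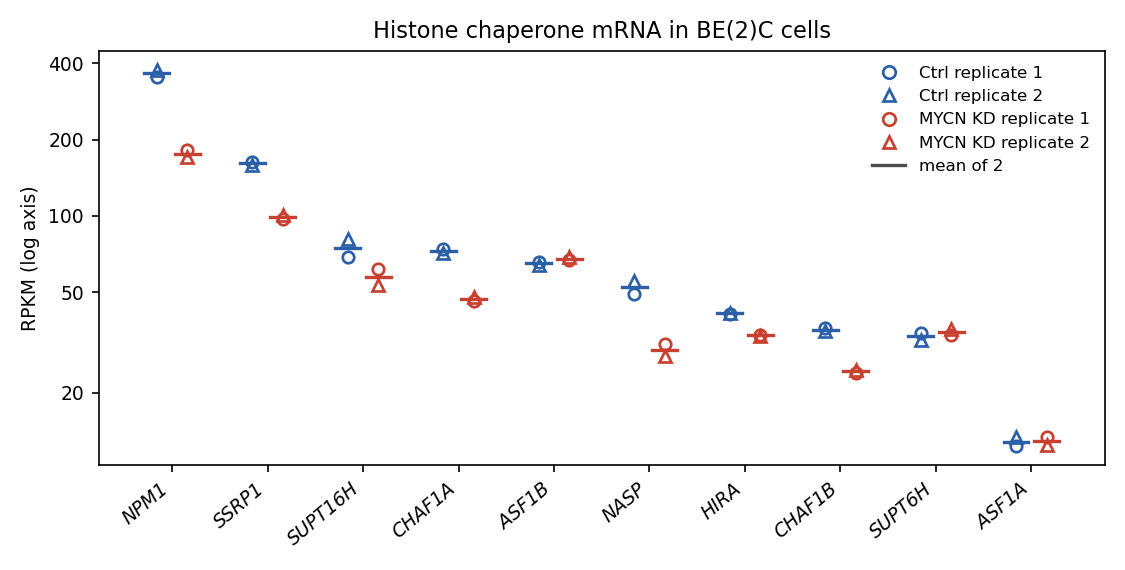
RPKM of the 10 histone chaperone genes (log axis) in each of the 2 Ctrl samples (blue) and 2 MYCN KD samples (red), with circles for replicate 1, triangles for replicate 2 and a line at the mean of 2. NPM1 stands highest and ASF1A lowest in both conditions, and the groups are apart for NPM1, SSRP1, CHAF1A, NASP, HIRA and CHAF1B and overlap for SUPT6H and ASF1A.

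In Ctrl the order of the levels ran from NPM1 at 366.0 RPKM through SSRP1 (161.2), SUPT16H (74.8), CHAF1A (72.8), ASF1B (65.0), NASP (52.3), HIRA (41.2), CHAF1B (35.5) and SUPT6H (33.4) to ASF1A at 12.8 RPKM. SUPT16H and CHAF1A, neighbours in this order, overlapped between samples, whereas the other neighbours did not. In MYCN KD the order was NPM1 (175.9), SSRP1 (98.8), ASF1B (67.8), SUPT16H (57.6), CHAF1A (46.7), SUPT6H (34.7), HIRA (33.8), NASP (29.5), CHAF1B (24.3) and ASF1A (12.9 RPKM). There SUPT6H and HIRA were the neighbours that overlapped. ASF1B thus moved from the fifth place to the third while its own level stayed within a few RPKM.

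FACT was the chaperone that the study itself measured. The study reported significantly lower mRNA and protein of both subunits, by quantitative PCR and Western blot. It also reported a significant decrease of both in its RNA-seq. In the main fit here SSRP1 passed the threshold and SUPT16H did not. SSRP1, the smaller subunit of FACT, which carries an HMG box, had 163.8 and 158.6 RPKM in Ctrl against 97.2 and 100.4 RPKM in MYCN KD. Its samples lay close together within a condition and far apart between conditions. The mean fell by 38.7%, with a log2 fold change of -0.70 (its standard error was 0.039, and limma gave an adjusted p of 0.00382), and 4.82% of the genes tested had a lower value. SUPT16H, which encodes the larger subunit SPT16, had 68.8 and 80.7 RPKM in Ctrl against 61.9 and 53.2 RPKM in MYCN KD. Both MYCN KD samples were below both Ctrl samples, but the gap within each condition was large beside the gap between them. Its MYCN KD mean was 77.0% of the Ctrl mean and its log2 fold change was -0.37, with a 95% interval of -0.73 to -0.01 (adjusted p = 0.0820 from limma). Without Ctrl replicate 1 the adjusted p of SUPT16H was 0.000256 and without MYCN KD replicate 1 it was 0.000471, whereas it was 0.0658 without Ctrl replicate 2 and 0.0693 without MYCN KD replicate 2, in fits where the lone sample of a condition is assumed to vary like the others.

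Within a sample SSRP1 was more abundant than SUPT16H per length. The ratio of SSRP1 to SUPT16H was 2.38 and 1.97 in the Ctrl samples and 1.57 and 1.89 in the MYCN KD samples. Both MYCN KD ratios were below both Ctrl ratios, and the mean log2 ratio was 0.33 lower with SDs of 0.195 in Ctrl and 0.189 in MYCN KD (n = 2 each), so the difference was under 2 SDs of the replicates (two-sided exact permutation test, p = 0.3333, the smallest p that 2 samples against 2 allow). The difference in log2 ratio was -0.1911 without Ctrl replicate 1, -0.1952 without MYCN KD replicate 1, -0.4667 without Ctrl replicate 2 and -0.4625 without MYCN KD replicate 2.

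SPT6 is the third chaperone of transcribed genes among the 10. SUPT6H had 34.4 and 32.4 RPKM in Ctrl against 33.7 and 35.7 RPKM in MYCN KD, and the conditions overlapped. Its log2 fold change was 0.05 with a 95% interval of -0.10 to 0.21 (adjusted p = 0.453 from limma). This interval does not reach the value of SSRP1.

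The start regions of the FACT genes are shown because MYCN is a transcription factor that binds the E-box CACGTG, and because the subunits differ in these letters. Each line gives the 250 bases before the RefSeq start site (RefSeq window of GRCh38.p14, placed on GRCh37 by exact match), 5′ to 3′ in the direction of the gene. Capitals mark CACGTG, or CACGCG and its reverse complement CGCGTG, which is a weaker E-box.
SSRP1 promoter, chr11:57103367-57103616, minus strand: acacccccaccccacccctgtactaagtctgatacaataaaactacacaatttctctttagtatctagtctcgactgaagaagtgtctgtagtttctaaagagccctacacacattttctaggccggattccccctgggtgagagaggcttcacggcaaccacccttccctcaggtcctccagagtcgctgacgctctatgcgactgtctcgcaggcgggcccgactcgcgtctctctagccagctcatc
SUPT16H promoter, chr14:21852179-21852428, minus strand: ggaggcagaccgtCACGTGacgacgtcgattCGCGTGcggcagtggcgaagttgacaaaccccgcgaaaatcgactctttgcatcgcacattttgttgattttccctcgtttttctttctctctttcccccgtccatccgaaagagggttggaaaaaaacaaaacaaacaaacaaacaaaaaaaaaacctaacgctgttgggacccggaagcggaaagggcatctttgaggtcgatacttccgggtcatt

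Counted from the start site, the E-box of SUPT16H begins at position -237 and its CGCGTG at -219, and the SSRP1 window holds neither. The windows searched run from 250 bases before to 50 bases after each start site, on both strands. Over the 10 genes, CACGTG was found for 2 (SUPT16H and CHAF1A), against 8.77% of the 27305 genes in the promoter table and 13.2% of the 8489 of them that were tested. CACGCG was found for 3 of the 10 (SUPT16H, NPM1 and HIRA), against 13.5% of the genes in the table and 23.8% of those tested. Either motif was found for 4 of the 10, against 33.1% of the tested genes. Among genes called lower that the table holds, 18.8% had CACGTG, 29.2% had CACGCG and 41.7% had either, so the counts of the 10 genes lay near these shares. NPM1, with 2 windows in the table, had 4 matches to CACGCG in the window of 1 of them, of which a pair overlapped each other. A match describes letters and not binding.

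CAF-1 puts H3-H4 onto new DNA at the replication fork, where it is tethered by PCNA. Its large subunit gene CHAF1A had 74.1 and 71.5 RPKM in Ctrl against 45.9 and 47.6 RPKM in MYCN KD. CHAF1B, which encodes the WD40 subunit, had 36.1 and 35.0 RPKM in Ctrl against 24.0 and 24.7 RPKM in MYCN KD. For both genes the conditions were clearly apart. CHAF1A fell by 0.63 on the log2 scale (standard error 0.041, adjusted p = 0.00440 from limma) and CHAF1B fell by 0.53 (standard error 0.040, adjusted p = 0.00510 from limma). The ratio of CHAF1A to CHAF1B was 2.05 and 2.04 in the Ctrl samples and 1.91 and 1.93 in the MYCN KD samples. The values after knockdown lay under those of Ctrl, by 0.09 on the log2 scale, with SDs of 0.0062 and 0.0066 (two-sided exact permutation test, p = 0.3333, the smallest possible here).

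The CAF-1 start regions are shown for the same reason as those of FACT: the subunits fell together, and 1 of the 2 windows holds the E-box.
CHAF1A promoter, chr19:4402387-4402636, plus strand: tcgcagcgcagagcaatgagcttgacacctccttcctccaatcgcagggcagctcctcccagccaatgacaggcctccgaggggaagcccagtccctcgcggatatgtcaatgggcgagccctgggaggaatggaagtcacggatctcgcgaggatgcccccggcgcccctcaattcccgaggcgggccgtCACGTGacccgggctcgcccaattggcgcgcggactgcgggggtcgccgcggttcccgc
CHAF1B promoter, chr21:37757440-37757689, plus strand: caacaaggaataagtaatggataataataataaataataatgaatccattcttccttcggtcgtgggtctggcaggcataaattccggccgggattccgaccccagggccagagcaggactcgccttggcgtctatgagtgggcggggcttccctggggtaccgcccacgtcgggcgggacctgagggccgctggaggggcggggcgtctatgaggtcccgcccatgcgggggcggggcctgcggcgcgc

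In CHAF1A the E-box begins at position -59, and the CHAF1B window holds neither CACGTG nor CACGCG. An E2F site spelled TTTGGCGC, TTTCCCGC, TTTGCCGC or TTTCGCGC was found on either strand in 1 of the 10 genes, HIRA, at position -45, against 3.99% of the genes in the table, 6.91% of those tested and 8.92% of those called lower. Matches in HIRA are counted from a RefSeq start site at chr22:19419256, which lies inside the gene span given below and not at its end.

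**Figure D2:**
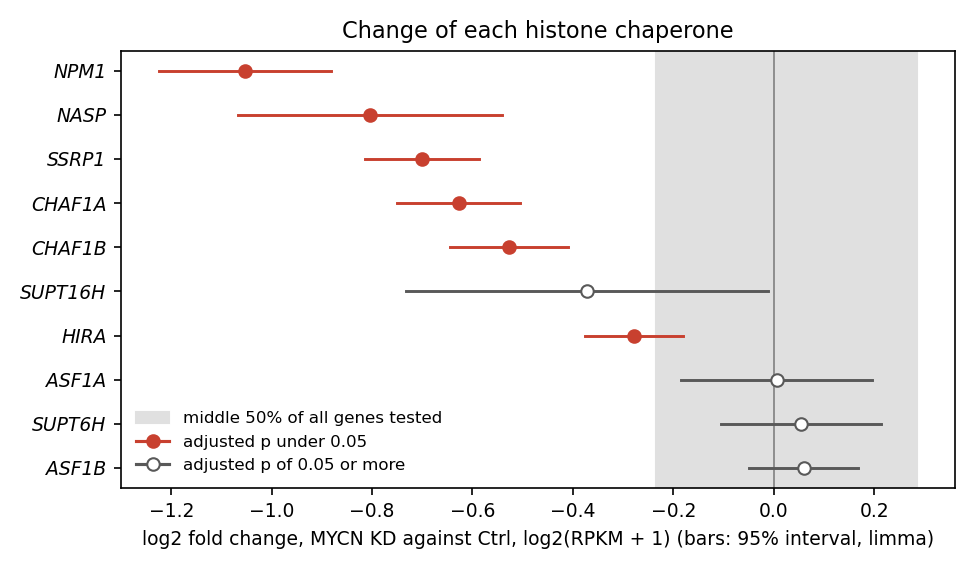
Log2 fold change of each chaperone gene in MYCN KD against Ctrl on log2(RPKM + 1), with 95% intervals from limma (n = 2 per condition). Filled red points have an adjusted p under 0.05, and the grey band holds the middle 50% of all genes tested, from -0.23 to 0.29. NPM1 lies farthest down at -1.05, and ASF1A, SUPT6H and ASF1B lie at 0.01 to 0.06.

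The ASF1 paralogs deliver H3-H4 dimers. ASF1B is the copy linked to proliferating cells, and ASF1A also serves HIRA. ASF1B had 65.9 and 64.2 RPKM in Ctrl against 66.9 and 68.8 RPKM in MYCN KD. ASF1A had 12.3 and 13.3 RPKM in Ctrl against 13.4 and 12.4 RPKM in MYCN KD. The MYCN KD samples of ASF1B lay slightly above the Ctrl samples, and those of ASF1A overlapped with them. The log2 fold change of ASF1B was 0.06 with a 95% interval of -0.05 to 0.17 (adjusted p = 0.258 from limma), and it reached 0.12 with an adjusted p of 0.0391 after rescaling the samples to equal totals. The log2 fold change of ASF1A was 0.01 with a 95% interval of -0.18 to 0.20 (adjusted p = 0.946 from limma), and its sign turned with quantile normalization and with 2 of the 4 samples left out. ASF1B was 5.35 and 4.82 times as abundant as ASF1A in the Ctrl samples and 5.01 and 5.54 times in the MYCN KD samples. These ratios overlapped between conditions (two-sided exact permutation test, p = 0.6667).

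NASP, the chaperone of the soluble H3-H4 pool, had 49.3 and 55.2 RPKM in Ctrl against 31.1 and 27.9 RPKM in MYCN KD. Its MYCN KD values stood well below its Ctrl values in spite of a replicate gap of several RPKM. NASP fell by 0.80 on the log2 scale (standard error 0.089, adjusted p = 0.00888 from limma), to 56.4% of the Ctrl mean.

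NPM1 had 353.5 and 378.4 RPKM in Ctrl against 181.5 and 170.3 RPKM in MYCN KD. It had both the highest level and the largest fall of the 10 genes, to 48.1% of the Ctrl mean. Limma put its log2 fold change at -1.05 (standard error 0.058, adjusted p = 0.00383), and 1.04% of all genes tested had a lower value. NPM1 stood at 6.20 and 6.36 times the median of the 10 genes in the Ctrl samples and at 4.60 and 4.13 times the median in the MYCN KD samples. That drop of 0.53 on the log2 scale separated the conditions (two-sided exact permutation test, p = 0.3333, the smallest possible here). The annotation names 49 pseudogenes of NPM1 and 1 each of SUPT16H, NASP and HIRA. How reads that match several places were counted is not given in the sources used here, and levels of these genes are uncertain to that extent.

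HIRA, the scaffold of the H3.3 deposition complex, had 40.9 and 41.5 RPKM in Ctrl against 34.0 and 33.6 RPKM in MYCN KD. The replicates nearly coincided. HIRA fell by 0.28 on the log2 scale, the smallest of the 6 falls, and 21.8% of all genes tested had a lower value (standard error 0.033, adjusted p = 0.0101 from limma). With a sample left out the log2 fold change of HIRA lay between -0.2876 and -0.2698. Its call was lost in several alternative fits, unlike the calls of NPM1, NASP, SSRP1, CHAF1A and CHAF1B.

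The 10 genes lie on 9 chromosomes of GRCh37, with ASF1B and CHAF1A sharing chromosome 19. SSRP1 is at chr11:57093460-57103366 on the minus strand with 17 exons in its canonical transcript, SUPT16H at chr14:21819635-21852178 on the minus strand with 26 exons, and NPM1 at chr5:170814120-170838814 on the plus strand with 11 exons. CHAF1A is at chr19:4402637-4445015 on the plus strand with 15 exons, CHAF1B at chr21:37757690-37791313 on the plus strand with 14, NASP at chr1:46049518-46084576 on the plus strand with 15, and HIRA at chr22:19318221-19434973 on the minus strand with 25. SUPT6H is at chr17:26989216-27029697 on the plus strand with 37 exons, ASF1A at chr6:119215316-119230336 on the plus strand with 4, and ASF1B at chr19:14230324-14247425 on the minus strand with 4. Exons of 4 of the genes overlap another listed gene: ASF1A with MCM9 and CHAF1A with UBXN6 on the opposite strand, and CHAF1B with MORC3 and HIRA with C22orf39 on the same strand. Use of strand in the counting is not given in the sources used here. MCM9 lay at 1.18 to 1.22 RPKM and MORC3 at 1.72 to 3.62 RPKM. UBXN6 (42.0 to 60.5 RPKM) and C22orf39 (15.9 to 18.5 RPKM) were higher in MYCN KD, by 0.36 and 0.17 on the log2 scale (adjusted p = 0.0452 and 0.0347 from limma), opposite in direction to CHAF1A and HIRA.

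The partners of these chaperones were compared in lists of 51 genes, of which 48 were tested. In these 48 genes 18 were lower and 1 was higher, with a median log2 fold change of -0.19. The shares over all genes tested were 22.8% lower and 25.3% higher. The 3 genes that were not tested, named after their values were seen, were NAP1L2 (0.214 to 0.296 RPKM), DAXX (0.0263 to 0.0426 RPKM) and NPM2, a relative of NPM1 known from eggs, which was listed at 0 in both Ctrl samples and at 0.0400 and 0.0188 RPKM in MYCN KD. The DAXX values rest on 10 to 19 recovered reads a sample. How reads that match several places were counted is not given, so these values do not show that a gene is silent.

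**Figure D3:**
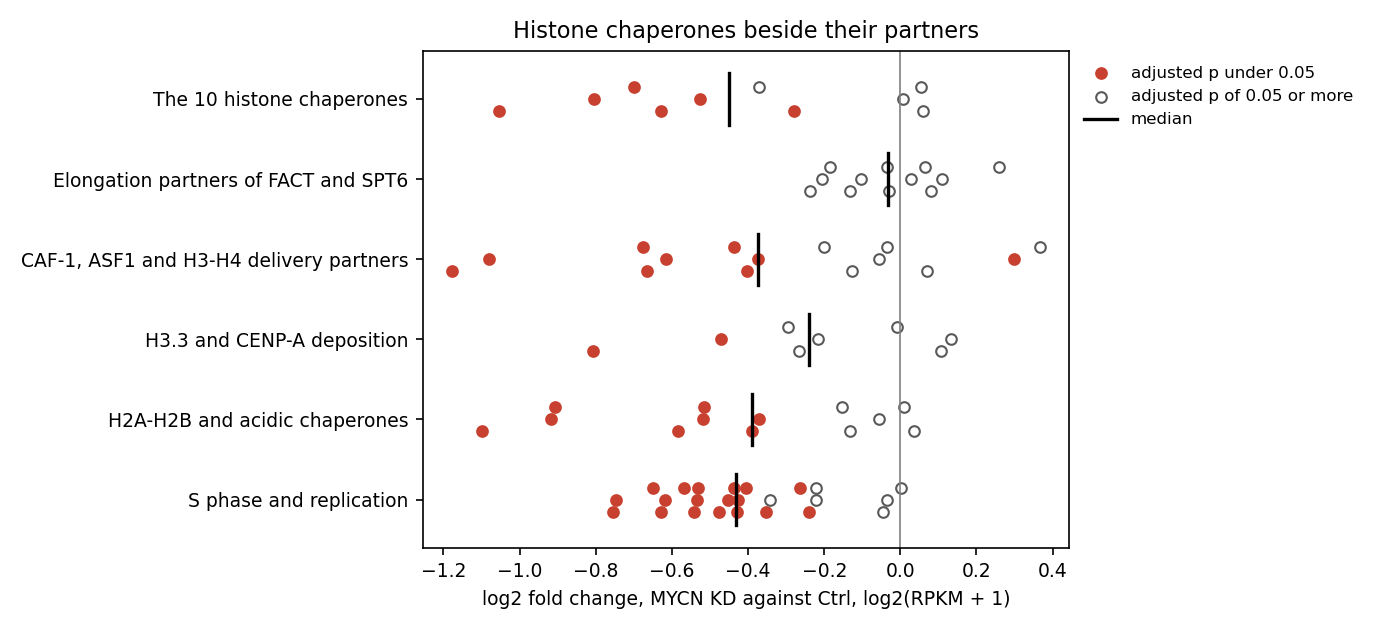
Log2 fold change (MYCN KD against Ctrl, log2(RPKM + 1), n = 2 per condition) of every tested gene in each list, 1 point a gene, filled where the adjusted p is under 0.05 and with a bar at the median. The 10 chaperones have a median of -0.45 and the elongation partners, with no filled point, one of -0.03.

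Elongation partners of FACT and SPT6 were the list without a call. These 12 genes encode the PAF1 complex, which rides on RNA polymerase II, DSIF (SUPT4H1, SUPT5H), the SPT6 partner IWS1, TFIIS (TCEA1), the remodeler CHD1 and the H3K36 methyltransferase SETD2. In limma 0 of the 12 were lower and 0 were higher, as in limma voom, and at an unadjusted p under 0.05 the counts were 1 and 0. Their log2 fold changes ran from -0.24 to 0.26 with a median of -0.03, and their summed level was 365.9 and 372.9 RPKM in Ctrl against 364.7 and 359.8 RPKM in MYCN KD. The gene at an unadjusted p under 0.05 was WDR61 (-0.20), named after its value was seen. SUPT6H at 0.05 lay within the range of this list. SSRP1 at -0.70 and SUPT16H at -0.37 lay outside it, though SUPT16H did not pass the threshold. Whether the lists differ was not tested.

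Among 15 genes that bring H3-H4 to CAF-1 and ASF1 or work beside them at forks, 8 were lower and 1 was higher, with a median of -0.37. Over all genes tested 22.8% were lower and 25.3% were higher. PCNA, the sliding clamp, had 141.6 and 204.6 RPKM in Ctrl against 89.1 and 62.6 RPKM in MYCN KD, which gave -1.18 on the log2 scale with a standard error of 0.28. IPO4, the importin that carries H3-H4 with ASF1, went from 85.5 and 74.5 RPKM in Ctrl to 34.8 and 39.8 RPKM in MYCN KD (-1.08). POLE3, a histone-fold subunit of DNA polymerase epsilon, was at -0.68 and MCM2, a helicase subunit that binds H3-H4, at -0.67. The limma adjusted p of these 4 genes ran from 0.00359 (POLE3) to 0.0400 (PCNA). The 1 gene that was higher, named after its value was seen, was CDAN1, whose product binds ASF1, at 0.30 (adjusted p = 0.0242 from limma).

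Of 8 tested genes for H3.3 and CENP-A deposition, 2 were lower and 0 were higher, with a median of -0.24 (unadjusted p under 0.05: 3 and 0; limma voom: 2 and 0). Among all genes tested 22.8% were lower and 25.3% were higher, so the count of lower genes lay near the background share. UBN1, a partner of HIRA, went from 23.9 and 22.4 RPKM in Ctrl to 15.9 and 16.9 RPKM in MYCN KD, or -0.47 on the log2 scale (limma adjusted p = 0.0106). The 2 genes of the list above 0, named after their values were seen, were UBN2 (0.11) and CABIN1 (0.13). Neither was called (adjusted p = 0.528 and 0.166 from limma).

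Among 13 tested H2A-H2B and other acidic chaperones, 8 were lower and 0 were higher, with a median of -0.39. The counts were 10 and 0 at an unadjusted p under 0.05, and 8 and 0 in limma voom. Over all genes tested 22.8% were lower and 25.3% were higher. NCL, which encodes the nucleolar protein nucleolin, went from 603.8 and 654.7 RPKM in Ctrl to 304.6 and 282.4 RPKM in MYCN KD (-1.10). NPM3, a relative of NPM1, went from 63.0 and 57.7 RPKM to 30.1 and 32.8 RPKM (-0.92). NAP1L5, of the nucleosome assembly protein family, and GRWD1, a histone-binding protein that also acts in ribosome assembly, were at -0.91 and -0.58. NCL and NPM3 thus lay near NPM1 (-1.05) in size of change.

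CAF-1, NASP and ASF1B serve replication, so replication genes were read beside them. Of 24 such genes, 18 were lower and 0 were higher, with a median of -0.43. The counts were 19 and 0 at an unadjusted p under 0.05, and 18 and 0 in limma voom. The shares over all genes tested were 22.8% lower and 25.3% higher. The largest changes were those of the licensing factor CDC6 (-0.76), the histone mRNA binding protein SLBP (-0.75), the helicase factor CDC45 (-0.65) and the primase PRIM1 (-0.63). MKI67, a marker of cycling cells and the 1 gene of the list above 0, named after its value was seen, had 43.0 and 46.5 RPKM in Ctrl against 46.5 and 43.1 RPKM in MYCN KD. CHAF1A, CHAF1B and NASP, at -0.63, -0.53 and -0.80, were lower as most of this list was, and ASF1B was at 0.06. The part of this list in the changes of the chaperones was not tested. In bulk RNA, fewer cells in S phase and less RNA per cell cannot be told apart. Of 12 widely expressed reference genes, 3 were lower and 2 were higher, with a median of -0.04.

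**Figure D4:**
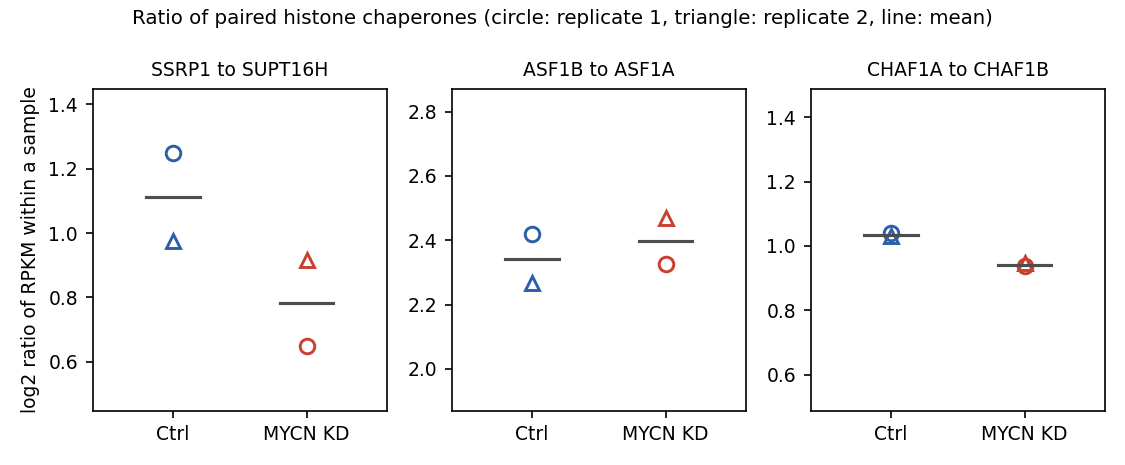
Log2 ratio of RPKM within each sample for SSRP1 to SUPT16H, ASF1B to ASF1A and CHAF1A to CHAF1B, on axes of the same span, with circles for replicate 1, triangles for replicate 2 and a line at the mean of 2. The CHAF1A to CHAF1B ratio went from 1.03 to 0.94 with little spread, SSRP1 to SUPT16H went from 1.11 to 0.78 with wide spread, and ASF1B to ASF1A overlapped between Ctrl and MYCN KD.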

How the data were processed

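RNA-seq values of 2 Ctrl and 2 MYCN KD samples of BE(2)C cells were used. The authors aligned reads to hg19 (GRCh37) with HISAT2 2.1.0 (version from the submitters' processing notes), took counts on RefSeq genes with featureCounts, and passed them through DESeq2 and RUVSeq, the latter to take out unwanted variation. The deposited RPKM values, 1 file a sample, derive from the counts that RUVSeq gave. The RUVSeq variant, the number of factors and the handling of strand and multiply mapped reads are not given in the sources used here. The removal of variation before deposit can change the spread between replicates.

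Differences were fitted with limma 3.58.1 in R 4.3.3 (lmFit, eBayes with a trend) on log2(RPKM + 1) for the 11411 genes averaging 1 RPKM or more, and p-values were adjusted over all of them (Benjamini-Hochberg). Fold changes on this scale understate those of low genes. The fit was tested on simulated data, where it recovered most of the changed genes but made more false calls than the threshold of 0.05 allows. The simulated counts were independent between samples, shared a fixed dispersion and had few changed genes. The deposited values differ in these respects, so the simulation does not give their error rate. Ratios were tested by two-sided exact permutation. Whole reads were recovered from the RPKM steps for 19908 of the 19908 genes above 0, with totals set from small RNA genes of known length. Each gene took the smallest length that made all its values whole, so a count can be a fraction of the true one. On this basis between 963 and 21540 reads lay behind each value of the 10 genes. Named were the 10 chaperone genes, MYCN, up to 4 called genes with the largest change in a list, and relatives of NPM1. One gene that this rule names is not reported here. The chaperone genes and the lists were chosen with earlier results of these data known. Gene positions came from GENCODE release 44 on GRCh37. Tables, exact tests and plots were made in Python 3.11.15 (pandas 2.3.3, scipy 1.17.1, matplotlib 3.10.9). Alternatives were another pseudocount, 2 filters, 2 scalings, no trend, limma voom, the replicate block and each sample left out.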

Additional observations from a re-analysis of the deposited data

How the results depend on the processing

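The count of chaperone genes called lower was 6 in each alternative other than the crossed block and the fits with a sample left out, which gave 5 to 7. NPM1, NASP, SSRP1, CHAF1A and CHAF1B kept their direction and their call throughout. The count called higher was 1 after rescaling to equal totals, against 0. Without a filter on low values, which adds many genes to the adjustment, 11 of the other chaperones and partners and 11 S phase genes were called lower, against 18 of each. The other chaperones called higher, 1 as reported, were 2 after rescaling to equal totals, 0 without a filter, 0 with quantile normalization, 0 with the replicate block, and 0 to 2 with a sample left out. With a mean RPKM of at least 5, 1868 genes were called higher in all, against 2890. The log2 fold change of ASF1A, 0.01 as reported, was -0.0212 with quantile normalization and between -0.0455 and 0.0574 with a sample left out. The log2 ratio of ASF1B to ASF1A, 0.05 higher in MYCN KD, lay from -0.0213 to 0.1292 with a sample left out. CACGTG or CACGCG was found in the start regions of 4 of the 10 genes, against 33.1% of the tested genes, and CACGTG in 2. The cause of these changes was not tested.

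The samples share only replicate numbers: deviations of same-numbered samples from their condition means correlated at -0.9845 over the tested genes. With the replicate block, SUPT16H kept its value of -0.37 and passed the threshold (adjusted p = 0.0266 from limma), and HIRA at -0.28 did not (adjusted p = 0.13), so the count of 6 lower held a different gene. With the numbers crossed, a block chosen after seeing the data, 5262 of the 11411 genes tested were lower and 5910 higher. Of the 10 chaperone genes 7 were lower and 2 higher, and of the 48 others 36 were lower and 12 higher. This fit called nearly every gene, so it does not separate changed genes from unchanged ones. With 2 samples a condition and values adjusted before deposit, the replicate spread is known poorly.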

Other observations

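The deviations of the replicates mirrored each other at each of the 10 genes. They did so across the genes tested (correlation of -0.9845), so the mirroring is not particular to the chaperones. For SUPT16H, replicate 2 exceeded replicate 1 by 0.23 in Ctrl and differed from it by -0.22 in MYCN KD, on the log2(RPKM + 1) scale. NASP (0.16 and -0.15), ASF1A (0.10 and -0.10) and NPM1 (0.10 and -0.09) had gaps of the same sign as SUPT16H in each condition. SUPT6H (-0.08 and 0.08), CHAF1A (-0.05 and 0.05), SSRP1 (-0.05 and 0.05), CHAF1B (-0.04 and 0.04) and ASF1B (-0.04 and 0.04) had gaps of the opposite sign, and HIRA had the smallest (0.02 and -0.02). The gaps of the FACT subunits thus had opposite signs in each condition, and those of the CAF-1 subunits had the same sign.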
